A study of Mus musculus with 5 samples.

Results

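The keratin-associated protein genes (Krtap genes) are the 57 rows, of 36716 genes in the count table, whose symbol starts with Krtap and that had at least 1 count in any mouse. Their transcripts were measured in skin biopsies of 153 female SKH-1 mice aged 7 to 8 weeks, a hairless strain. In the scratched groups, the upper back was stroked 12 times with a metal brush before 10 µL of PBS (scratched), nanosized TiO2, ZnO or Ag (scratched nTiO2, scratched nZnO and scratched nAg, 0.5 mg each) was applied. The intact groups received the nanomaterials (nTiO2, nZnO and nAg) or PBS (control) at the same volume and dose, and biopsies were taken at 24 h or 7 d. A scratched only group existed at both times, and naive mice were untreated. There were 8 mice in each of 18 groups and 9 naive mice, and each mouse was 1 library.

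Krtap proteins fill the space between the keratin filaments of the hair shaft, where they are cross-linked by disulfide bonds, and they are made late in hair shaft differentiation by cells of the cortex and cuticle in growing (anagen) follicles. They are sorted by composition into high-glycine-tyrosine, high-sulfur and ultra-high-sulfur proteins. Hairless mice lose their coat after the first hair cycle through a mutation of Hr, a nuclear regulator of the hair cycle, and their later follicles are malformed. All 57 genes matched the Gencode M39 annotation of GRCm39, in which each had 1 exon, and 56 of them were coding. The exception was Krtap19-9a, a processed pseudogene.

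Short stretches of the coding sequence show what separates the classes. They were read from the GRCm39 genome along each gene's own strand, and the genes were chosen as abundant members of each class. Codons of glycine and tyrosine are in capitals in the high-glycine-tyrosine genes Krtap8-1 (chr16:89284652-89284681, minus strand, residues 39 to 48) and Krtap22-2 (chr16:88807516-88807545, minus strand, residues 18 to 27). Codons of cysteine are in capitals in the high-sulfur gene Krtap3-2 (chr11:99447597-99447626, minus strand, residues 1 to 10) and the ultra-high-sulfur gene Krtap1-3 (chr11:99481672-99481701, minus strand, residues 149 to 158).
Krtap8-1: GGCTATGGCcttGGCTATGGCTACaatGGC
Krtap22-2: GGTTATGGCTATGGTGGTctgGGCTACGGC
Krtap3-2: atggctTGCTGTgttgcccgcTGCTGCagt
Krtap1-3: TGCTGCcgcccagccTGCTGCTGCtacTGC
In these windows, 8 of 10 codons of Krtap8-1 and 9 of 10 of Krtap22-2 encoded glycine or tyrosine, and 4 of 10 codons of Krtap3-2 and 6 of 10 of Krtap1-3 encoded cysteine. Over the whole protein, glycine and tyrosine made up 47.5% of the 61 residues of Krtap8-1 and 62.7% of the 67 residues of Krtap22-2. Cysteine made up 20.2% of the 99 residues of Krtap3-2 and 30.6% of the 173 residues of Krtap1-3.

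The promoters of the genes also shared letters that the choice by symbol did not use. The 6 letters of a TATA box, TATAAA, stood 40 to 20 bases before the start on the sense strand in 31 of 56 Krtap promoters of the Gencode M39 annotation of GRCm39 (55.4%). Among all 21559 promoters of protein-coding genes the share was 1.95%. Anywhere from 250 bases before to 50 bases after the start, on either strand, TATAAA was in 46 of 56 Krtap promoters (82.1%), against 13.2% of all promoters. CTTTGA, the core of the sequence bound by Lef1, was in 16 of 56 (28.6%), against 16.1% of all promoters. The 4 examples in which TATAAA is in capitals are the promoters of Krtap8-1 (chr16:89284852-89284881), Krtap3-2 (chr11:99447694-99447723), Krtap3-1 (chr11:99457476-99457505) and Krtap16-3 (chr16:88759774-88759803), all on the minus strand.
Krtap8-1: ccagtcggggtaTATAAAgatggtctgaga
Krtap3-2: cactgaggaaggTATAAAacagtccagact
Krtap3-1: gggaggcgggtaTATAAAagccagggcaga
Krtap16-3: ctcaacacagggTATAAAagcattctggat
The motif began 29 bases before the start of Krtap8-1, 32 before Krtap3-2, 37 before Krtap3-1 and 30 before Krtap16-3. Krtap3-2 and Krtap3-1, neighbours whose levels ran differently in the skin, carried the same letters at a like distance. Krtap3-3, a neighbour whose level ran like that of Krtap3-1, had no TATAAA 40 to 20 bases before its start. A link between the motif and these levels was not tested.

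The 57 genes lay in 5 clusters of the GRCm39 genome, and further Krtap genes of the annotation are not counted in them. The cluster on chromosome 16 (88407593 to 89368071) held 24 members, 15 high-glycine-tyrosine and 8 high-sulfur, and averaged 471.5 CPM (the counts of a gene scaled to a total of 1000000 per mouse) in sum. The cluster on chromosome 11 (99440956 to 99884820) held 23 members, 11 high-sulfur and 12 ultra-high-sulfur, and averaged 255.2 CPM. The other clusters were on chromosome 10 (3 members, 9.21 CPM), chromosome 1 (2 members, 7.71 CPM) and chromosome 7 (5 members, 3.95 CPM). On this 3′ end assay 1 unique molecular identifier stands for 1 captured transcript whatever its length. CPM values can thus be set side by side between genes, except for members whose 3′ sequence is shared with other genes, since only uniquely aligned reads were counted.

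By class, the 19 high-glycine-tyrosine genes held 49.8% of the Krtap transcripts, the 20 high-sulfur genes 39.4% and the 17 ultra-high-sulfur genes 10.7%. The classes were set by a rule on composition, with glycine plus tyrosine of at least 35%, and otherwise cysteine of at least 30% for ultra-high-sulfur. It placed the cysteine-rich Krtap28 genes, Krtap5-2 and Krtap5-3 with the high-glycine-tyrosine genes, and Krtap7-1 and the cysteine-poor Krtap15 with the high-sulfur genes. The rule also split subfamilies. Krtap1-3 (30.6% cysteine) and Krtap9-1 (37.6%) fell among the ultra-high-sulfur genes, and Krtap1-5 (26.2%) and Krtap9-3 (27.2%) among the high-sulfur genes. The most abundant subfamily was Krtap3 (3 genes, 136.0 CPM), followed by Krtap8 (1 gene, 131.8 CPM), Krtap22 (1 gene, 97.6 CPM), Krtap6 (4 genes, 60.5 CPM), Krtap15 (1 gene, 52.5 CPM), Krtap19 (7 genes, 48.7 CPM) and Krtap4 (8 genes, 37.8 CPM).

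Single genes ranged over several orders of magnitude. Krtap8-1 averaged 132 CPM over all mice, Krtap22-2 averaged 97.6, Krtap3-2 averaged 78.5 and Krtap15 averaged 52.5, and 5 genes held 52.7% of the sum. Of the ultra-high-sulfur genes, which build the cuticle and cortex matrix, Krtap1-3 averaged 17.3 CPM and Krtap17-1 averaged 12.3 CPM. On chromosome 10, Krtap12-1 averaged 4.18 CPM and Krtap10-10 averaged 2.92 CPM, on chromosome 1 Krtap28-13 averaged 3.90 CPM and Krtap28-10 averaged 3.81 CPM, and on chromosome 7 Krtap5-4 averaged 1.39 CPM and Krtap5-2 averaged 1.11 CPM. In human hair, members of subfamilies 5, 10 and 12 are proteins of the cuticle, and here the listed members of each averaged under 10 CPM in sum. Of 113 Krtap genes in Gencode M39, 56 are not among the 57 members, so these sums do not cover whole subfamilies. In all, 18 genes averaged at least 10 CPM and 13 averaged under 1 CPM, the lowest being Krtap9-5 at 0.026 CPM.

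A few genes could not be read alone. Krtap15 and Krtap14 (Pmg2 and Pmg1 of the mouse, first known from growing hair and the pubertal mammary gland) overlap on opposite strands, and whether the counting used strand is not given in the sources used here. Krtap4-13 shared 96.2% of the 62-base windows of its 3′ end with other Krtap4 genes, and only uniquely aligned reads were counted, so its 0.188 CPM is uncertain.

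The Krtap sum differed more between mice of 1 group than between groups. Over all mice it spanned 11.4 to 10171 CPM, a range of 891-fold, with a median of 220.4 CPM and a mean of 747.5 CPM. It was under 100 CPM in 42 mice and over 1000 CPM in 35 mice, and at its highest it was 1.02% of all counts of a mouse. Of the variance of the log2 sum, 78.6% lay within groups. Between 8 and 56 of the 57 genes had a count in a mouse (median 33), and only Krtap3-2 had one in every mouse.

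The highest group medians of the sum were 1584 CPM in 7 d nAg mice (lowest 314, highest 2611), 860.0 CPM in 7 d nZnO mice (75.1 to 3222) and 845 CPM in 24 h control mice (276 to 10171). The lowest were 81.9 CPM in 7 d scratched nAg mice (31.1 to 1015), 101 CPM in 7 d scratched nZnO mice (75.8 to 2511) and 104 CPM in naive mice (34.5 to 770.1). Every pair of groups overlapped, since the highest value of each group (770.1 CPM or more) was above the lowest value of every other group (314 CPM or less). At 24 h, the medians were 144 CPM in scratched mice, 126 in scratched nTiO2, 195 in nTiO2, 212 in scratched nZnO, 219 in nZnO, 283 in scratched nAg, 172 in nAg and 196 in scratched only mice. At 7 d, they were 302 CPM in scratched, 324 in control, 130.1 in scratched nTiO2, 238 in nTiO2 and 192 in scratched only mice. In bulk skin, fewer hair-forming cells and fewer transcripts per such cell cannot be told apart.

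**Figure D1:**
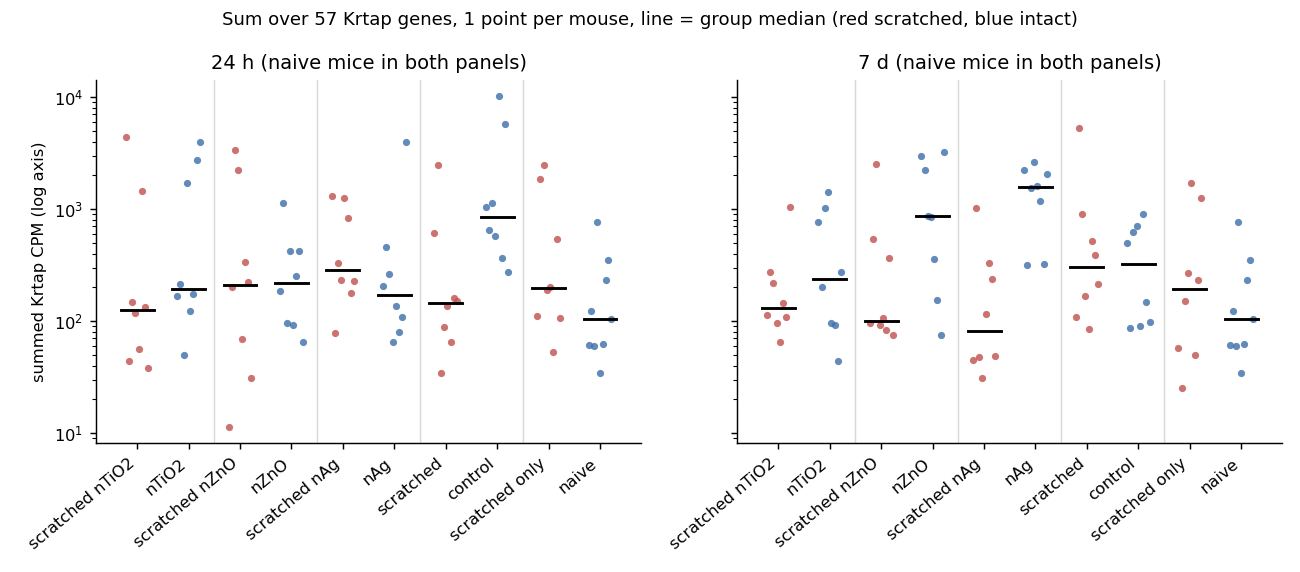
Summed CPM of the 57 Krtap genes on a log axis, 1 point per mouse and a line at each group median, at 24 h (left) and 7 d (right), with scratched groups in red left of their intact groups in blue and naive mice in both panels. The spread within each group is wide, and the 7 d nAg group (314 to 2611 CPM) is the tightest of the high groups.

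Facts of the whole series bear on these values as follows. Totals were 201053 to 4028559 counts per mouse (median 1226021), and the lowest belonged to 7 d control replicate 3, ahead of the next lowest at 613961. The Krtap sum followed neither the total (Spearman's rho 0.07 over 153 mice) nor the RNA integrity number, which was 7.7 to 9.9 (rho 0.04). Libraries were sequenced in 5 pools. The medians of the sum per pool were 168, 207, 215, 224 and 271 CPM, and each pool held low and high mice. Labels disagreed on whether 7 d nZnO replicate 7 had been scratched, and it was kept with the intact group that the count table names. Markers of interfollicular epidermis were present in every mouse, with sums of 6487 to 19846 CPM, and skeletal muscle markers varied from 55.8 to 12339 CPM.

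The members went up and down together. Among the 18 genes averaging at least 10 CPM, Spearman's rho between a gene and the sum of all other Krtap genes over the 153 mice had a median of 0.90 and reached 0.95 for Krtap8-1. The values are a description, since the genes share libraries and depth. Pairs of these genes had a median rho of 0.86 within a cluster (73 pairs) and of 0.84 across clusters (80 pairs). The lowest rho was that of Krtap3-2, at 0.61, and the next lowest was that of Krtap19-3, at 0.75.

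Krtap3-2, a high-sulfur gene at chr11:99446649-99447679 on the minus strand, stood apart from its neighbours. Its level ranged from 2.85 to 393.5 CPM over all mice with a median of 71.2 CPM, a range of 138-fold, whereas the sum of all other members spanned 1313-fold. Its coefficient of variation over mice was 0.69, against 1.59 to 2.91 for the other 17 genes averaging at least 10 CPM. The neighbouring genes of its subfamily, Krtap3-1 (chr11:99456853-99457456) and Krtap3-3 (chr11:99440956-99441691), followed the other members, with rho of 0.94 each and coefficients of variation of 1.78 and 1.76.

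In naive mice the contrast was plain in the levels. Krtap3-2 had a median of 77.2 CPM (21.3 to 104), and Krtap8-1 had a median of 8.65 CPM (1.48 to 169). Krtap3-1 had a median of 1.25 CPM and Krtap3-3 of 2.33 CPM in the same mice. Krtap3-2 was thus present where its neighbours were scarce. Over all mice it made up 3.68 to 88.4% of the Krtap sum (median 23.1%), with over 50% in 42 mice.

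**Figure D2:**
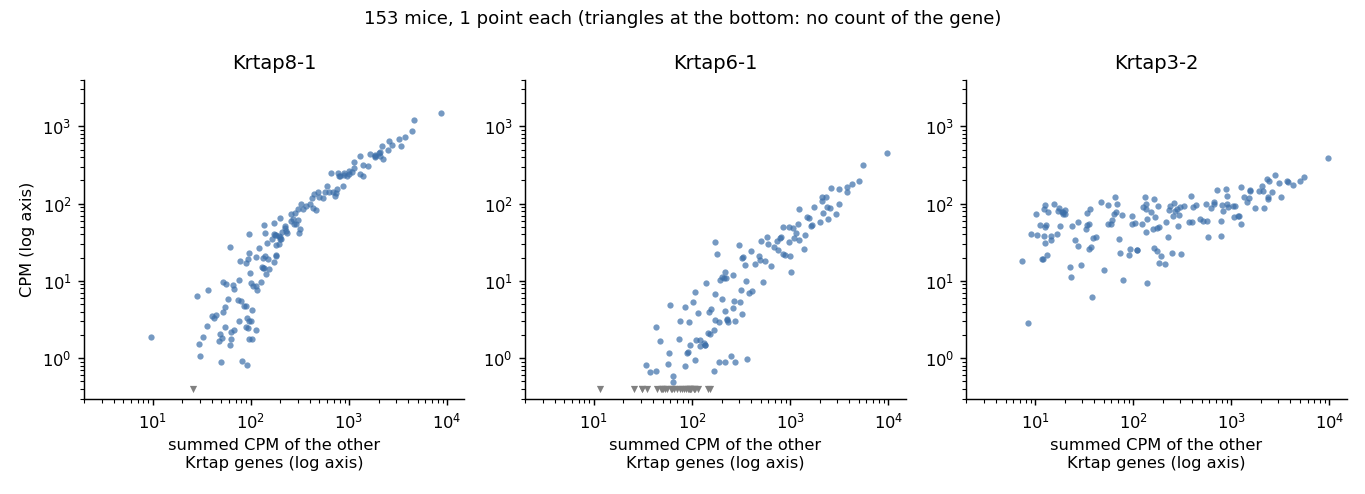
CPM of Krtap8-1, Krtap6-1 and Krtap3-2 (log axis) against the summed CPM of all other Krtap genes (log axis), 1 point for each of 153 mice, with triangles for mice without a count. Krtap8-1 follows the sum closely (rho 0.95) and Krtap6-1 likewise (rho 0.90), whereas Krtap3-2 keeps a level in mice with few other Krtap transcripts (rho 0.61).

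The make-up of the sum changed with its size, in part through Krtap3-2. With all members, the high-sulfur share fell with the sum (rho -0.73). The high-glycine-tyrosine share (rho 0.71) and the ultra-high-sulfur share (rho 0.50) followed the sum. Without Krtap3-2, the rho of the high-sulfur share was -0.01, that of the high-glycine-tyrosine share 0.34 and that of the ultra-high-sulfur share -0.44. Only the high-sulfur trend thus went away, and the ultra-high-sulfur trend changed sign. Median shares without Krtap3-2 were 53.6% high-glycine-tyrosine, 31.0% high-sulfur and 14.1% ultra-high-sulfur. These are shares of small counts in the mice with low sums.

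Among 10007 other genes averaging at least 10 CPM, those most like the Krtap sum over the 153 mice were genes of the hair follicle. Their Spearman's rho was 0.96 for Prr9, a small proline-rich protein of cornifying cells, 0.95 for Gm10229, and 0.95 for Krt33a, a keratin of the hair cortex. It was 0.95 for Krt27, 0.93 for Krt25 and 0.93 for Krt71, keratins of the inner root sheath, and 0.94 for Tchh, the trichohyalin that hardens that sheath. It was 0.94 for S100a3, a calcium-binding protein of the hair cuticle, 0.93 for Krt86, another cortex keratin, and 0.93 for Tchhl1, a relative of trichohyalin. In all, 22 genes reached a rho of 0.8. The likeness held within pools, from 0.93 to 0.97 for Prr9 and from 0.91 to 0.98 for Krt33a.

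Lists of other hair genes followed the Krtap sum to unequal degrees. The 15 keratins of hair cortex and cuticle in the table had a summed level with a rho of 0.96 to the Krtap sum, and the 10 genes of the inner root sheath and companion layer one of 0.95. Single keratins of cortex and cuticle ranged from 0.18 (Krt84) to 0.95 (Krt33a), with the lowest values in the scarcest genes. The 8 hair shaft proteins other than keratins had a rho of 0.75 in sum, with 0.94 for S100a3 and 0.90 for Gprc5d, against 0.01 for the transglutaminase Tgm3, 0.07 for the desmosomal cadherin Dsc2, 0.10 for Lmo1 and -0.10 for Pkp1, all of which averaged at least 10 CPM except Gprc5d (9.22 CPM). The 20 regulators of hair growth had a rho of 0.21 in sum. That sum is weighted to Ctnnb1 (beta-catenin), which averaged 666 CPM and had a rho of -0.06, whereas the transcription factors Hoxc13, Foxn1 and Lef1 had 0.44, 0.37 and 0.45 and the highest single one was Msx2 at 0.55. Follicle stem cell markers had a rho of 0.33, interfollicular epidermis markers -0.09, skeletal muscle markers 0.08, fibroblast markers -0.13 and neutrophil markers -0.17. Macrophage markers had a rho of -0.49 (-0.63 to -0.34 within pools, -0.93 to 0.07 within groups). Their sum is weighted to Lyz2, which averaged 3058 CPM and had a rho of -0.46. Cd68, Adgre1 and Fcgr1 had -0.47, -0.38 and -0.14. All of these describe mice that share a group, and no p-value is attached to them.

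**Figure D3:**
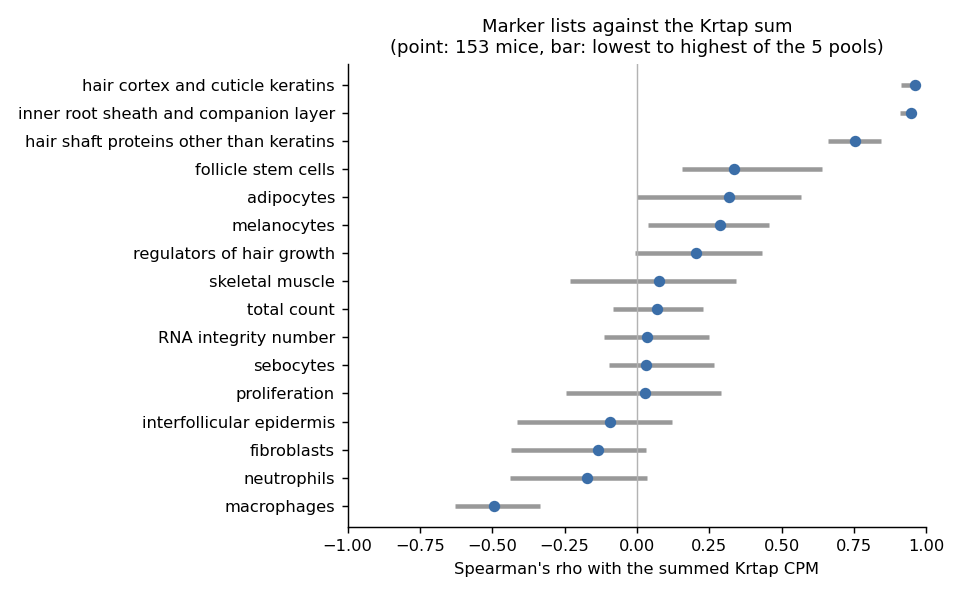
Spearman's rho of each marker list's summed CPM, of the RNA integrity number and of the total count with the summed Krtap CPM, as a point over 153 mice and a bar for the lowest to highest value within the 5 sequencing pools. Hair keratins (0.96) and inner root sheath genes (0.95) lie at the right end and macrophage markers (-0.49) at the left end.

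For Krtap3-2 the closest genes, looked up after its level had been seen, were in part others. The first were Mt4, a metallothionein of stratified epithelia (rho 0.81), Car6, a secreted carbonic anhydrase (0.75), Krt73, an inner root sheath keratin (0.69), and Crym, which binds thyroid hormone (0.68). Krt27 (0.66), Tchh (0.65) and Prr9 (0.65), named above for the Krtap sum, were also among the 10 genes closest to Krtap3-2. In naive mice the medians of Mt4 and Car6 were 19.8 and 37.6 CPM, against medians over all mice of 36.1 and 37.6 CPM, while Prr9 had 17.4 CPM in naive mice, against 114 CPM over all mice. The naive median of Car6 equalled its median over all mice, whereas those of Mt4 and Prr9 were below theirs.

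The first comparison asked what scratching did at 24 h, and Krtap3-2 was the only Krtap gene called by edgeR, as lower. It had 10.4, 31.1 and 114 CPM (lowest, median and highest) in 24 h scratched mice, against 60.1, 106 and 393.5 CPM in 24 h control mice. In 7 of 8 scratched mice it was below every control mouse, and scratched replicate 2 lay inside the control range. The log2 fold change was -1.90 (SE 0.43, adjusted p = 0.0165, edgeR's quasi-likelihood test with Benjamini-Hochberg adjustment over all genes tested). The mean was 40.4 ± 35.1 CPM in scratched mice and 153 ± 110 CPM in control mice (SD, n = 8 each). Of the 23 Krtap genes that passed the filter on low counts, this 1 was called, and of all genes tested 3.39% were called in either direction.

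The other members were also lower in the 24 h scratched mice without passing the test. Krtap8-1 had 5.87, 24.3 and 451 CPM in scratched mice, against 41.2, 150.1 and 1486 CPM in control mice, a log2 fold change of -2.29 (SE 0.84, adjusted p = 0.147, edgeR). Krtap1-5, a high-sulfur gene, had 0, 0.576 and 32.1 CPM in scratched mice, against 3.06, 17.0 and 240 CPM in control mice (log2 fold change -3.11, SE 0.90, adjusted p = 0.0596, edgeR). Both pairs of ranges overlapped. All 23 fold changes were negative with an unadjusted p under 0.05, but only 3 of the 23 passed the filter in both groups, so for the others the direction was set by the filter and supports nothing. All 9 hair keratins tested were negative too (median -2.29), and 0 of 9 were called by edgeR, with 9 of 9 at an unadjusted p under 0.05. They passed the filter through the control mice alone, so their direction too was set by it and supports nothing. The median over all genes tested was -0.01.

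The number of calls in this comparison moved with the tool and with 1 mouse. DESeq2 called 11 Krtap genes, limma voom 2 and edgeR with robust dispersions 0. Without scratched replicate 2 there were 22 calls, and without any other single mouse 1 to 3. Krtap3-2 was called in each of these settings except the robust one (adjusted p = 0.0595). Control mice came from pools 1 and 3 and scratched mice from pools 1 and 2. Within pool 1, Krtap3-2 had 10.4, 24.2 and 114 CPM in 4 scratched mice, against 85.0, 168 and 393.5 CPM in 4 control mice, and with pool as a covariate its log2 fold change was -2.20 (adjusted p = 0.0379). Markers of other cell types differed in the same mice, and every marker named here had counts. Neutrophil markers summed to 905 to 4020 CPM in scratched mice, against 315 to 1901 CPM in control mice, with Cxcr2 and S100a9 called higher of 4. That sum is weighted to S100a8 and S100a9, which averaged 924 and 509 CPM over all mice, against 76.2 for Retnlg and 14.3 for Cxcr2. Follicle stem cell markers summed to 499 to 771 CPM in scratched mice, against 688 to 1282 CPM in control mice, with Cd34 and Krt15 called lower of 6. Adipocyte markers summed to 983 to 1930 CPM in scratched mice, against 1231 to 2765 CPM in control mice, with Cfd called lower of 5. Of the other lists, Dct of 3 melanocyte genes and Gata3 of 14 regulators of hair growth were called lower. Fcgr1 of 4 macrophage genes and Pdgfra of 5 fibroblast genes were called higher. In sum, macrophage markers had a median of 3469 CPM in scratched mice and 3020 CPM in control mice. Fibroblast markers in sum ran the other way from Pdgfra, with medians of 5733 CPM in scratched and 6491 CPM in control mice. Both pairs of ranges overlapped. Skeletal muscle markers summed to 143 to 6121 CPM in scratched mice, against 902 to 9480 CPM in control mice, with 0 of 7 called by edgeR and 0 at an unadjusted p under 0.05. Their part in the result was not tested.

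In the other scratched groups at 24 h, Krtap3-2 was not called. Medians were 36.6 CPM in scratched only mice, against 77.2 CPM in naive mice (log2 fold change -0.28, adjusted p = 0.746, edgeR). They were 25.6 CPM in scratched nTiO2 mice, against 79.7 CPM in nTiO2 mice (-0.84, adjusted p = 0.459). They were 49.9 CPM in scratched nZnO mice, against 69.8 CPM in nZnO mice (-0.46, adjusted p = 0.580), and 40.6 CPM in scratched nAg mice, against 54.8 CPM in nAg mice (-0.82, adjusted p = 0.194). All of these ranges overlapped, and with pool as a covariate the log2 fold change of scratched only against naive mice was 0.19.

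**Figure D4:**
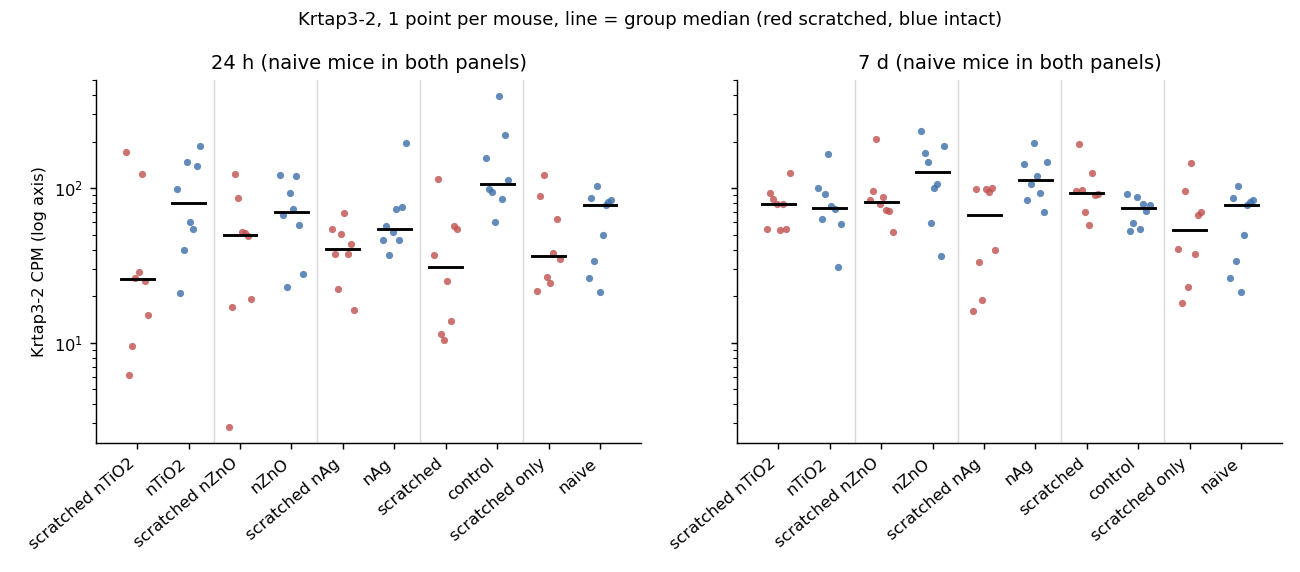
Krtap3-2 CPM on a log axis, 1 point per mouse and a line at each group median, at 24 h (left) and 7 d (right), with scratched groups in red left of their intact groups in blue and naive mice in both panels. At 24 h each scratched median (25.6 to 49.9 CPM) lies below the median of its intact group (54.8 to 106 CPM, and 77.2 CPM in naive mice).

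The other members gave no calls by edgeR in those comparisons. In 24 h scratched only against naive mice 0 of 4 tested Krtap genes were called, with 3 at an unadjusted p under 0.05, and 2.93% of all genes were called. In scratched nTiO2 against nTiO2 mice it was 0 of 5, with 0 at an unadjusted p under 0.05 (all genes 2.15%), in scratched nZnO against nZnO mice 0 of 4, also with 0 (all genes 5.33%), and in scratched nAg against nAg mice 0 of 11, with 1 (all genes 1.5%). DESeq2 and limma voom called 0 in each. The depth and the spread limited what could be seen, since most members were not above 5 counts in 75% of the mice of either group.

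At 7 d the widest difference was between the scratched nAg and the nAg group, where 17 of 28 Krtap genes tested fell and 0.611% of all genes tested were called. Of the 43 genes of any kind called lower, 17 were Krtap genes. All but 1 of the 28 passed the filter through the nAg mice alone, so the direction of the calls was set by the filter and their number supports nothing. The high-glycine-tyrosine gene Krtap6-3 had 0, 0.308 and 3.97 CPM in 7 d scratched nAg mice, against 0.888, 19.8 and 43.2 CPM in 7 d nAg mice. The ranges overlapped through 1 nAg mouse, replicate 2, while the other nAg mice were all above every scratched nAg mouse. The log2 fold change was -4.71 (SE 0.64, adjusted p = 0.00221, edgeR), with means of 0.773 ± 1.34 CPM in scratched nAg mice and 19.4 ± 12.9 CPM in nAg mice (SD, n = 8 each).

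Members of several classes were among those called in that comparison. Krtap16-3, a further high-glycine-tyrosine gene, had 0, 0 and 8.94 CPM in scratched nAg mice, against 0, 24.4 and 79.3 CPM in nAg mice (log2 fold change -4.81, adjusted p = 0.0153, edgeR). Krtap15 had 0, 1.25 and 20.9 CPM in scratched nAg mice, against 1.78, 70.9 and 160 CPM in nAg mice (-4.10, adjusted p = 0.00860). Krtap3-1 had 0, 2.02 and 33.8 CPM in scratched nAg mice, against 12.2, 70.3 and 162 CPM in nAg mice (-3.57, adjusted p = 0.00860). In each of these genes the ranges overlapped, and the median of nAg mice was above the highest scratched nAg mouse. The other genes called were Krtap19-9b (-4.46), Krtap6-2 (-4.19), Krtap14 (-4.16), Krtap4-6 (-3.62), Krtap6-5 (-3.45), Krtap6-1 (-3.42), Krtap7-1 (-3.27), Krtap2-4 (-3.24), Krtap21-1 (-3.16), Krtap9-3 (-2.95), Krtap3-3 (-2.93), Krtap4-2 (-2.92) and Krtap1-3 (-2.74), given as log2 fold changes, with adjusted p from 0.00860 to 0.0460 (edgeR).

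The most abundant members did not pass. Krtap8-1 had 1.52, 3.48 and 246 CPM in scratched nAg mice, against 54.3, 235 and 433 CPM in nAg mice (log2 fold change -2.55, SE 0.72, adjusted p = 0.0999, edgeR). Krtap22-2 had 0.832, 5.19 and 214 CPM in scratched nAg mice, against 47.4, 257 and 418 CPM in nAg mice (-2.86, SE 0.72, adjusted p = 0.0725). Scratched nAg replicates 2 and 6 lay inside the nAg range for both genes. Krtap3-2 had 15.9, 67.1 and 100.1 CPM in scratched nAg mice, against 69.6, 113 and 195 CPM in nAg mice (-0.92, SE 0.31, adjusted p = 0.177), the smallest difference of the 28.

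These calls rested on the nAg group being high and on how single mice were treated. All but 1 of the 28 genes had passed the filter through the nAg mice alone, and when more than 5 counts in 75% of the mice of both groups were asked for, 1 Krtap gene was tested and 0 were called. DESeq2 called 12, limma voom 1, edgeR with robust dispersions 1 and a fit of all 7 d groups 6. Leaving out 1 mouse gave 10 to 27 calls, with 27 without scratched nAg replicate 2, 10 without nAg replicate 4 or scratched nAg replicate 3, and 11 without nAg replicate 1, 5, 6 or 8 or scratched nAg replicate 4. Krtap6-3 was called with DESeq2, with the robust setting and in the fit of all groups, and missed the threshold with limma voom (adjusted p = 0.0714). Both groups came from pools 4 and 5, and pool as a covariate left 15 calls. In pool 5 the Krtap sum was 45.3, 142 and 330.3 CPM in scratched nAg mice, against 1185, 1619 and 2611 CPM in nAg mice, which do not overlap, and in pool 4 it was 31.1, 81.2 and 1015 CPM, against 314, 1548 and 2254 CPM, which do.

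Some other hair genes were called in that comparison too. Of 10 hair keratins tested, Krt34 and Krt83 were called lower (median log2 fold change -2.69), and of 9 inner root sheath and companion layer genes, Krt72 and Krt75 were (median -2.36). Krt34 and Krt72 passed the filter through the nAg mice alone, so their direction was set by it. All 15 hair keratins together had a median of only 10.0 CPM in scratched nAg mice, so the call of Krt83 is not read as support either. Of 15 regulators of hair growth 0 were called by edgeR, with 3 at an unadjusted p under 0.05 (median -0.25), and of 7 epidermis genes 0, with 0 at an unadjusted p under 0.05 (median -0.06). Macrophage markers summed to 2677 to 3770 CPM in scratched nAg mice, against 2112 to 3625 CPM in nAg mice, and neutrophil markers to 997 to 4410 CPM, against 540 to 1690 CPM. Follicle stem cell markers summed to 445 to 990.1 CPM in scratched nAg mice, against 856 to 1245 CPM in nAg mice, with 0 of 6 called by edgeR and 4 at an unadjusted p under 0.05. Melanocyte markers summed to 44.9 to 118 CPM in scratched nAg mice, against 92.1 to 183 CPM in nAg mice (0 of 3 called, 2 at an unadjusted p under 0.05), and adipocyte markers to 948.0 to 2323 CPM, against 1415 to 2308 CPM (0 of 5 called, 2). The macrophage and neutrophil lists had 0 of 4 called each, with 3 at an unadjusted p under 0.05 in each. All of these ranges overlapped, and the part of these markers in the result was not tested.

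**Figure D5:**
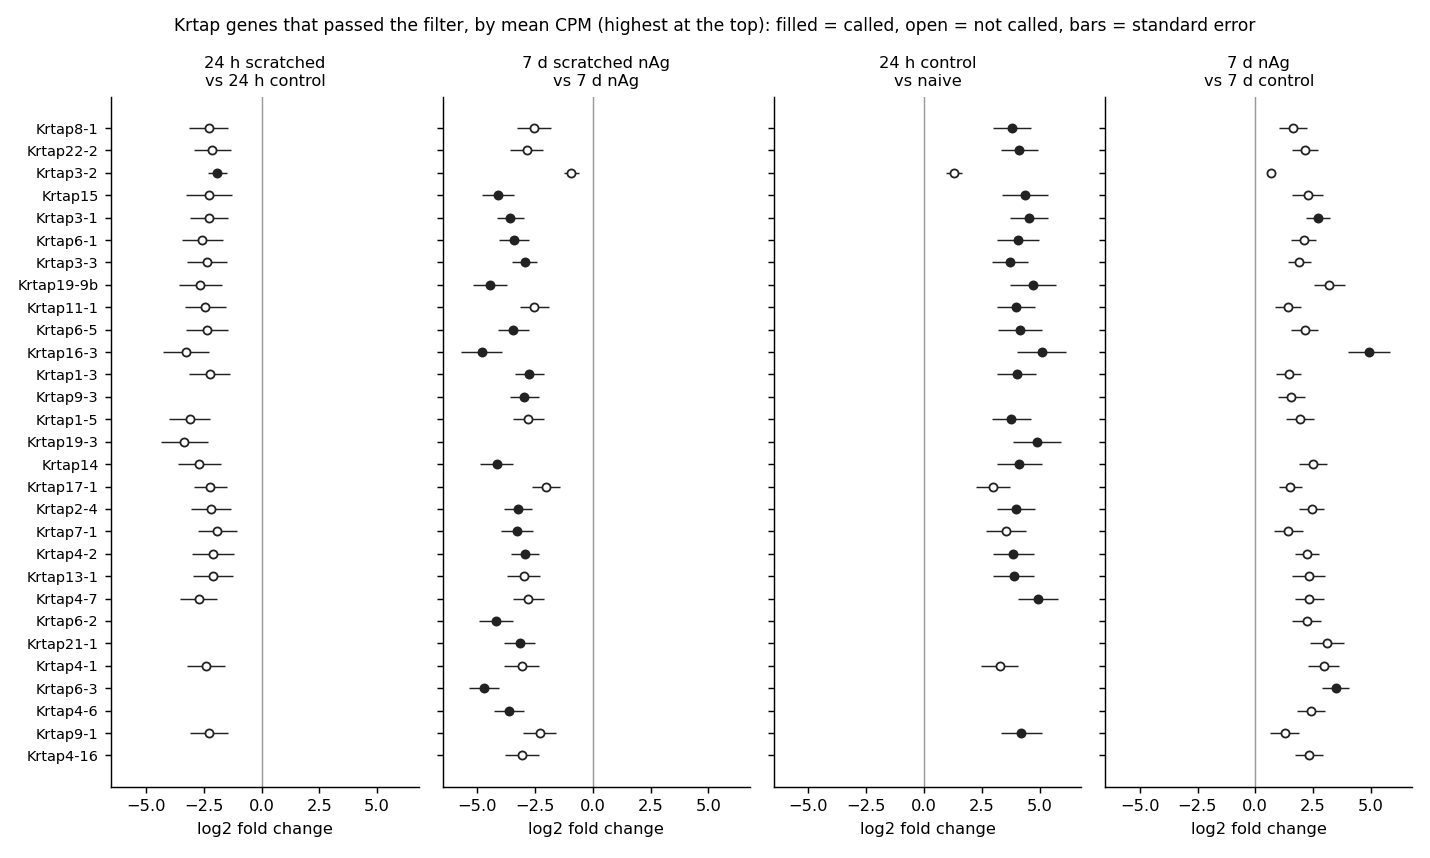
Log2 fold changes with standard errors (bars) of the Krtap genes that passed the filter in each of 4 comparisons, ordered by mean CPM with the highest at the top, filled where called and open where not. Krtap3-2 is the 1 filled point of 24 h scratched against 24 h control, and 17 genes are filled for 7 d scratched nAg against 7 d nAg, 19 for 24 h control against naive and 3 for 7 d nAg against 7 d control.

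The remaining scratched groups at 7 d showed no calls among Krtap genes by edgeR. In scratched against control mice 0 of 6 were called, with 1 at an unadjusted p under 0.05, and 0% of all genes were. Here the scratched libraries came from pools 4 and 5 and the control libraries from pools 1 and 3, and an effect of scratching cannot be told apart from one of the pool. In scratched only against naive mice 0 of 1 were called, with 0 at an unadjusted p under 0.05 (all genes 1.23%), and in scratched nTiO2 against nTiO2 mice 0 of 5, with 0 (all genes 0.135%). In scratched nZnO against nZnO mice it was 0 of 12, with 7 and only 1 passing the filter in both groups (all genes 0.944%). There, Krtap17-1 averaged 7.82 ± 12.0 CPM in scratched nZnO mice and 31.0 ± 34.2 CPM in nZnO mice (SD, n = 8 each; log2 fold change -2.12, SE 0.71, adjusted p = 0.154, edgeR). Limma voom called 0 in each of these comparisons, and DESeq2 called 0 in all but scratched against control mice, where it gave no adjusted p for the 6 Krtap genes.

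A second pair that differed were the 24 h control mice, which had received PBS, and the naive mice. Of 23 Krtap genes tested 19 rose, and 0.683% of all genes tested were called. Only 1 of the 23 passed the filter in both groups and it was not called, so the direction of the calls was set by the filter and their number supports nothing. The ultra-high-sulfur gene Krtap4-7 had 2.29, 12.0 and 108 CPM in 24 h control mice, against 0, 0.721 and 2.78 CPM in naive mice (log2 fold change 4.94, SE 0.87, adjusted p = 0.0106, edgeR). Krtap22-2 had 19.1, 114 and 1126 CPM in control mice, against 1.02, 5.77 and 68.5 CPM in naive mice (4.13, SE 0.79, adjusted p = 0.0195). Krtap8-1 had 41.2, 150.1 and 1486 CPM in control mice, against 1.48, 8.65 and 169 CPM in naive mice (3.81, SE 0.83, adjusted p = 0.0313). The ranges overlapped in each of these genes, for Krtap8-1 through naive replicates 4 and 8. Control replicates 5 and 7 were far above the other control mice, with 1486 and 1221 CPM of Krtap8-1.

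The other genes called had log2 fold changes of 5.09 (Krtap16-3), 4.89 (Krtap19-3), 4.69 (Krtap19-9b), 4.56 (Krtap3-1), 4.37 (Krtap15), 4.20 (Krtap9-1), 4.14 (Krtap6-5), 4.12 (Krtap14), 4.06 (Krtap6-1), 4.00 (Krtap1-3), 3.99 (Krtap2-4), 3.98 (Krtap11-1), 3.88 (Krtap13-1), 3.87 (Krtap4-2), 3.77 (Krtap1-5) and 3.73 (Krtap3-3), with adjusted p from 0.0132 to 0.0491 (edgeR). Krtap3-2 had 60.1, 106 and 393.5 CPM in control mice, against 21.3, 77.2 and 104 CPM in naive mice, and was not called (1.28, SE 0.34, adjusted p = 0.117). All 9 hair keratins tested and 8 of 9 inner root sheath genes were called higher as well. The naive medians of the hair keratins were at most 1.44 CPM, so their direction too was set by the filter and their number supports nothing. The inner root sheath genes had naive medians of at most 9.79 CPM, and their number is not read as support either.

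These calls did not hold in most other settings. DESeq2 called 10, limma voom 0 and edgeR with robust dispersions 0, and a filter on both groups 0. With pool as a covariate 0 were called (Krtap4-7 log2 fold change 5.00, adjusted p = 0.135). Leaving out 1 mouse gave 1 to 22 calls, with 1 without control replicate 5 or 7, 22 without control replicate 8 and 9 without control replicate 1 or 3. It was 2 without naive replicate 1, 2 or 9, 3 without naive replicate 3, 5 or 6, 4 without naive replicate 7 or 8, and 21 without naive replicate 4. Only pool 1 held mice of both groups, with Krtap sums of 276, 3081 and 10171 CPM in 4 control mice, against 59.3, 91.8 and 770.1 CPM in 4 naive mice. At 7 d, control against naive mice gave 0 of 3 Krtap genes called by edgeR, DESeq2 and limma voom, with 1 at an unadjusted p under 0.05, and 0.231% of all genes called.

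On intact skin, each nanomaterial was set against the control mice of the same time point, which therefore stand in 3 comparisons each. At 7 d, nAg mice had 3 of 28 Krtap genes tested higher than control mice, with 0.0859% of all genes called. Only 3 of the 28 passed the filter in both groups, with 0 of those called by edgeR, so the direction of the calls was set by the filter and their number supports nothing. Krtap6-3 had 0.888, 19.8 and 43.2 CPM in nAg mice, against 0, 0.445 and 3.98 CPM in control mice (log2 fold change 3.48, SE 0.59, adjusted p = 0.0454, edgeR). Krtap16-3 had 0, 24.4 and 79.3 CPM in nAg mice, against 0, 0.375 and 4.97 CPM in control mice (4.93, SE 0.91, adjusted p = 0.0454). Krtap3-1 had 12.2, 70.3 and 162 CPM in nAg mice, against 0.75, 5.11 and 27.6 CPM in control mice (2.71, SE 0.52, adjusted p = 0.0454). Each pair of ranges overlapped.

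Those 3 calls stood at the edge of the threshold. Without 7 d control replicate 3, the mouse with the lowest total, there were 4. DESeq2 called 5, and limma voom, edgeR with robust dispersions, a filter on both groups and a fit of all 7 d groups called 0. Leaving out 1 mouse gave 0 to 17 calls, with 17 without nAg replicate 7, 14 without nAg replicate 2, 1 without nAg replicate 6, and 0 without control replicate 2, 5, 6, 7 or 8 or nAg replicate 1, 3, 4, 5 or 8. Pools 4 and 5 held the nAg mice and pools 1 and 3 the control mice, and nAg cannot be told apart from the pool. Other markers differed between the same mice. Inner root sheath and companion layer genes summed to 282 to 2609 CPM in nAg mice, against 50.7 to 904.5 CPM in control mice, with 0 of 9 called by edgeR and 9 at an unadjusted p under 0.05. Macrophage markers summed to 2112 to 3625 CPM in nAg mice, against 3342 to 4748 CPM in control mice (0 of 4 called, 3 at an unadjusted p under 0.05). Follicle stem cell markers summed to 856 to 1245 CPM in nAg mice, against 641 to 964.9 CPM in control mice (0 of 6 called, 2), and melanocyte markers to 92.1 to 183 CPM, against 24.9 to 117 CPM (0 of 3 called, 2). These ranges overlapped, and their part in the result was not tested.

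For the other materials at 7 d, nZnO against control mice gave 0 of 12 Krtap genes called by edgeR, with 10 at an unadjusted p under 0.05 and only 3 passing the filter in both groups (all genes 0.0442%), and nTiO2 against control mice 0 of 4, with 0 (all genes 0%). Krtap3-1 averaged 77.9 ± 87.5 CPM in 7 d nZnO mice and 11.4 ± 11.5 CPM in 7 d control mice (SD, n = 8 each; log2 fold change 2.62, SE 0.73, adjusted p = 0.278, edgeR). In pool 4 the 5 nZnO mice had Krtap sums of 849, 2243 and 3222 CPM and in pool 5 the 3 others 75.1, 153 and 361 CPM, which do not overlap. The mouse with disagreeing labels, replicate 7, belonged to this group, and without it 0 of 12 Krtap genes were called both against control mice and for scratched nZnO against nZnO mice. At 24 h, 0 of 23 Krtap genes were called by edgeR in each of nTiO2 (1 at an unadjusted p under 0.05), nZnO (23) and nAg (17) against control mice, and 0% of all genes in each. Of all genes tested, 792 of 12057, 663 of 11816 and 842 of 11684 had an unadjusted p under 0.05 in the nTiO2, nZnO and nAg comparisons. Only 5, 4 and 2 of the 23 Krtap genes passed the filter in the nanomaterial group as well as in the control group, so the direction of the others was set by the filter and their unadjusted counts support nothing. Krtap16-3 averaged 3.33 ± 5.51 CPM in 24 h nZnO mice and 83.7 ± 149 CPM in 24 h control mice (log2 fold change -4.63, SE 1.08, adjusted p = 0.346, edgeR). DESeq2 called 7 for nAg at 24 h and 0 in the other 4 comparisons of nTiO2 and nZnO with control mice, and limma voom called 0 in all 5.

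On scratched skin, nanomaterial groups against the scratched group gave no Krtap calls by edgeR, DESeq2 or limma voom. At 24 h it was 0 of 3 for nTiO2 and for nZnO and 0 of 11 for nAg, with 0 at an unadjusted p under 0.05 in each. At 7 d it was 0 of 6 in each, with 1 at an unadjusted p under 0.05 for nTiO2, 0 for nZnO and 2 for nAg. In all 6 of these comparisons 0% of all genes were called.

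Over time, Krtap3-2 rose in scratched mice. It had 10.4, 31.1 and 114 CPM in 24 h scratched mice and 57.8, 93.2 and 194 CPM in 7 d scratched mice (log2 fold change of 7 d over 24 h 1.29, SE 0.36, adjusted p = 0.0438, edgeR). The ranges overlapped through 24 h replicate 2. It was 1 of 6 Krtap genes tested, and 4.39% of all genes were called. It lost the call with DESeq2 (adjusted p = 0.0603), with robust dispersions, in a fit of all groups and when 24 h replicate 1, 3, 4, 5 or 6 or 7 d replicate 1, 2, 3, 6, 7 or 8 was left out (0 calls each, adjusted p up to 0.0789). Pools 4 and 5 held the 7 d mice and pools 1 and 2 the 24 h mice, and time cannot be told apart from the pool. In control mice, 7 d against 24 h gave 0 of 23 called by edgeR, with 23 at an unadjusted p under 0.05 but only 3 passing the filter in both groups, and 1 called by DESeq2 and 0 by limma voom, and 0% of all genes were called.

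The difference between the scratching contrast at 24 h and that at 7 d was also tested. With PBS, Krtap3-2 differed (-2.31 on the log2 scale, SE 0.51, adjusted p = 0.0238, edgeR), with log2 fold changes of -1.90 at 24 h and 0.41 (adjusted p = 0.452) at 7 d. It was 1 of 23 Krtap genes tested, with 0.394% of all genes called. At 7 d the scratched mice (pools 4 and 5) and the control mice (pools 1 and 3) shared no pool, so a difference between the times cannot be told apart from one between pools. With nAg, Krtap6-3 (6.24, SE 1.20, adjusted p = 0.0252) and Krtap6-2 (5.26, SE 1.09, adjusted p = 0.0384) differed, 2 of 28 tested, with 0.074% of all genes called. Neither was among the 11 Krtap genes tested at 24 h, both had passed the filter through the 7 d nAg mice alone, and the difference rests on that group being high. At 24 h, Krtap6-3 had 0, 3.13 and 16.4 CPM in scratched nAg mice, against 0, 0 and 13.7 CPM in nAg mice, and these ranges overlapped. With nTiO2 0 of 6 were called, with 0 at an unadjusted p under 0.05 (all genes 0.147%), and with nZnO 0 of 12, with 10 (all genes 0.928%). Only edgeR was used for these differences.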

How the data were processed

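RNA from 153 skin biopsies was sequenced from the 3′ end in 5 pools. The authors aligned reads of 62 bases with STAR 2.7.6a to GRCm39 with Gencode M28 and used Drop-seq tools 2.4.1, and the deposited values are raw counts of unique molecular identifiers per gene and mouse, from uniquely aligned reads. The deposited RNA integrity number is a score per sample. Groups were taken from the header of the count table and the deposited sample sheet. CPM were computed from the total of each mouse. Genes with more than 5 counts in 75% of the mice of either group were tested with edgeR 4.0.16 (TMM, quasi-likelihood, R 4.3.3), with Benjamini-Hochberg adjustment over all genes tested, and called where the adjusted p was below 0.05 and the log2 fold change 0.33 or more in either direction. Only the mice of the compared groups entered each fit, without covariates. The scripts were tested on simulated data. No 2 libraries of 540 replicate pairs held identical counts.

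Members were chosen by symbol. Given in full were the 2 with the highest mean CPM in each class and cluster and those called in any comparison, up to 30, and the 10 genes most like the sum. The members and lists were chosen with earlier results of these data known. Alternatives were DESeq2 1.42.0 (adjusted p-values it does not give were kept as missing), its size factors in edgeR, limma voom 3.58.1 with quality weights, no filter, a filter on both groups, 1 fit of all groups, pool as a covariate and leaving out mice. Robust dispersions, leaving out single mice outside the 2 comparisons of scratched with control mice, 7 d control replicate 3 and 7 d nZnO replicate 7 were added after seeing the data. Protein composition came from Gencode M39 coding sequences. Totals of 201053 to 4028559 counts limit the precision for members under 5 counts.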

Additional observations from a re-analysis of the deposited data

Results flagged for a closer look

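In 12 of 38 sets of mice (19 groups, the Krtap sum and Krtap3-2 in each), 1 mouse lay far above the others of its group by Dixon's test. It was made on CPM values and not on logs. The rate of about 1 in 20 sets by chance holds for normally distributed values, which CPM values that span this widely within a group are not, so the number of sets is not read against it. For the Krtap sum these were naive replicate 4 (770.1 CPM), 24 h scratched replicate 2 (2480.0 CPM), 24 h scratched nTiO2 replicate 1 (4425 CPM), 24 h nZnO replicate 2 (1128 CPM), 24 h nAg replicate 8 (3936 CPM), 7 d scratched replicate 2 (5264 CPM), 7 d scratched nTiO2 replicate 8 (1037 CPM), 7 d scratched nZnO replicate 3 (2511 CPM) and 7 d scratched nAg replicate 2 (1015 CPM). For Krtap3-2 they were 24 h scratched replicate 2 (114 CPM), 24 h nAg replicate 8 (197 CPM) and 7 d scratched nZnO replicate 3 (207 CPM), each of which was also the extreme mouse of its group for the sum. All 12 lay on the high side.

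The scratching contrast differed between 24 h and 7 d for 3 genes by the edgeR test of that difference. Krtap3-2 differed by -2.31 on the log2 scale with PBS, and with nAg Krtap6-2 differed by 5.26 and Krtap6-3 by 6.24. With PBS, the 7 d scratched and 7 d control mice shared no sequencing pool, and a difference between the times cannot be told apart from one between pools. The 2 genes with nAg passed the filter on low counts through the 7 d nAg mice alone.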

How the results depend on the processing

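Group medians of the Krtap sum moved by less than 1 SD in all 76 alternatives. In nearly all groups, however, the SD was larger than the median itself (naive mice: median 103.7 CPM, SD 236.9 CPM). Such a median could have vanished and still moved by less than 1 SD, so no stability of the medians is concluded from this. The number of Krtap genes called moved by over 1.5 times in 82 of 310 alternatives, and no named gene changed sign with a call. Of 41 calls, 41 were kept with DESeq2's size factors, 26 with DESeq2, 10 in a fit of all groups, 3 with limma voom and 1 with robust dispersions (chosen after seeing the data), and 16 of 37 with pool as a covariate. The cause was not tested.

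For 24 h scratched against 24 h control (1 call), DESeq2 gave 11, no filter 21, limma voom 2, robust dispersions 0 and leaving out 1 mouse 1 to 22. For 7 d scratched nAg against 7 d nAg (17), no filter gave 39, a filter on both groups 0 (1 gene tested), all groups 6, limma voom 1, robust dispersions 1 and leaving out 1 mouse 10 to 27. For 24 h control against naive (19), DESeq2 gave 10, no filter 41, a filter on both groups 0, all groups 3, pool 0, limma voom 0, robust dispersions 0 and leaving out 1 mouse 1 to 22. For 7 d nAg against 7 d control (3), DESeq2 gave 5, no filter 33, a filter on both groups 0, all groups 0, limma voom 0, robust dispersions 0 and leaving out 1 mouse 0 to 17. For 7 d scratched against 24 h scratched (1), DESeq2, all groups and robust dispersions gave 0 and leaving out 1 mouse 0 to 1. Where 0 were called, no filter gave 6 for 24 h scratched only against naive, 2 for 24 h scratched nZnO against nZnO, 1 for 7 d scratched only against naive, 28 for 24 h nZnO against control, 4 for 7 d nZnO against control and 23 for 7 d against 24 h control. DESeq2 gave 7 for 24 h nAg against control and 1 for 7 d against 24 h control. For the difference between times, no filter gave 5 with PBS (1 call) and 3 with nZnO (0).

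No paired analysis was possible because replicate numbers only name mice. Most members had too few counts to be tested in low groups.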

Other observations

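The genes whose level ran most against the Krtap sum over the 153 mice, looked up after the values had been seen, included several known genes of macrophages and other immune cells. Spearman's rho was -0.56 for Mpeg1, a pore-forming protein of macrophages, -0.52 for Laptm5, a lysosomal protein of blood cells, -0.52 for Cd84, -0.51 for Mmp13, a collagenase, -0.51 for Atp6v0d2, a proton pump subunit, and -0.50 for Ctss, the lysosomal protease cathepsin S. Within pools the rho of Mpeg1 was -0.75 to -0.46. Within groups it ran from -0.88 to 0.67, with a median of -0.43, so it was not negative in every group. Mpeg1 ranged from 68.7 to 341 CPM over all mice, far less than the Krtap sum. These values are a description of mice that share libraries and groups.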
